A study of Mus musculus with 2 samples.

Results

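The cells described here were macrophages of aged mouse hindlimb muscle that carried transcripts of the resident macrophage genes Lyve1, Folr2 or Cd163. They were selected on raw counts of unique molecular identifiers (UMIs, each standing for 1 captured transcript). A cell was taken where its C1qa, C1qb and C1qc UMIs summed to at least 5, its Pecam1, Cdh5, Pdgfra and Cd79a UMIs to at most 1, and its Lyve1, Folr2 and Cd163 UMIs to at least 3. This gave 248 Lyve1/Folr2 macrophages of 708 C1q macrophages and of 14984 cells kept in all. The other 460 C1q macrophages, with under 3 UMIs of the 3 genes, are called Lyve1-low macrophages and served as the comparison.

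The study asked how activation of retinoic acid receptors changes old muscle. Female C57Bl/6J mice, 24 months of age, received 3 rounds of injections within a week into the tibialis anterior, gastrocnemius and quadriceps. The ATRA+agonist group received all-trans retinoic acid (ATRA) with CD3254, an agonist of the retinoid X receptor (RXR), and BMS961, an agonist of a retinoic acid receptor. The DMSO vehicle group received the solvent in place of these compounds, and no group received ATRA, CD3254 or BMS961 alone. Cells from 2 mice were pooled into 1 library per group, so that every difference between the groups is a difference between 2 libraries, with no replicate and no test. Intervals printed beside shares and levels are exact 95% intervals, and those beside ratios of shares are approximate 95% intervals. All of them cover counting error only.

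Resident macrophages of muscle lie along vessels and in the connective tissue between fibers. They take up debris, heme, iron and dying cells and release chemokines and growth factors. LYVE1 is a receptor for hyaluronan, FOLR2 a folate receptor, and CD163 a scavenger receptor for hemoglobin bound to haptoglobin. C1q, made from C1qa, C1qb and C1qc, is the recognition part of the classical complement pathway and is made mostly by macrophages. Macrophages with LYVE1 and low major histocompatibility complex (MHC) class II are regarded as long-lived tissue residents, whereas those with more MHC class II and CCR2 are replaced from blood monocytes to a larger extent. RXR is the shared partner of the retinoic acid, liver X (LXR) and peroxisome proliferator-activated (PPAR) receptors, all of which are active in macrophages.

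The ATRA+agonist library held 10444 barcodes and 65197625 UMIs and the DMSO vehicle library 17394 barcodes and 109343486 UMIs. The limits on genes, mitochondrial UMIs and hemoglobin UMIs left 7467 and 7517 cells, at a median of 4887 and 4959 UMIs per cell. The 125 Lyve1/Folr2 macrophages of the ATRA+agonist library had a median of 9516 UMIs and 3077 genes per cell, and the 123 of the DMSO vehicle library a median of 8387 UMIs and 2699 genes. Lyve1-low macrophages were as deep, at medians of 10136 and 8572.5 UMIs. The hemoglobin limit removed 5 of 130 Lyve1/Folr2 macrophages (3.85%) with ATRA+agonist and 11 of 134 (8.21%) with DMSO vehicle. Both libraries shared 43 barcode sequences, 1 of which belonged to a Lyve1/Folr2 macrophage. No doublet caller was part of the selection, and removing the 7.5% of cells most like artificial doublets took out none of the 248 cells.

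The genes used for selection were Lyve1 (GRCm38 chr7:110850607-110863239, minus strand), Folr2 (chr7:101839988-101857194, minus strand) and Cd163 (chr6:124304656-124330527, plus strand). Folr2 was the most often detected of the 3, in 108 of 125 cells (86.4%, interval 79.1% to 91.9%) with ATRA+agonist and 102 of 123 (82.9%, 75.1% to 89.1%) with DMSO vehicle. Cd163 was detected in 76 cells (60.8%) and 73 cells (59.3%). Lyve1 was detected in 57 cells (45.6%) and 60 cells (48.8%). The selected cells were thus more often cells with Folr2 than cells with Lyve1. All 3 genes were found together in 35 cells of each library, Folr2 without the others in 30 and 31 cells, Cd163 without the others in 14 and 14 cells, and Lyve1 without the others in 0 and 1 cell.

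The summed UMIs of Lyve1, Folr2 and Cd163 did not fall into separate classes. Of the C1q macrophages, 208 of 393 with ATRA+agonist and 130 of 315 with DMSO vehicle had none of these UMIs. Just under the limit, at 2 UMIs, lay 27 and 21 cells, and just inside it, at 3 UMIs, lay 13 and 21 cells. Across this step the mannose receptor Mrc1 went from 982 to 1634 UMIs per 1000000 UMIs of those cells (counts per 1000000, CPM) with ATRA+agonist and from 1461 to 1997 CPM with DMSO vehicle. Coagulation factor F13a1 was at 822 and 739 CPM with ATRA+agonist and at 956 and 846 CPM with DMSO vehicle. Free RNA gave few such UMIs. Of endothelial cells, which should lack C1q, 0.398% and 0.854% held at least 5 C1q UMIs, and 1.39% and 1.16% at least 1 UMI of Lyve1, Folr2 or Cd163. Their depth was a median of 3981.5 and 4144 UMIs in those with at most 1 C1q UMI. A Lyve1/Folr2 macrophage held 85.8 and 81.1 C1q UMIs on average.

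**Figure D1:**
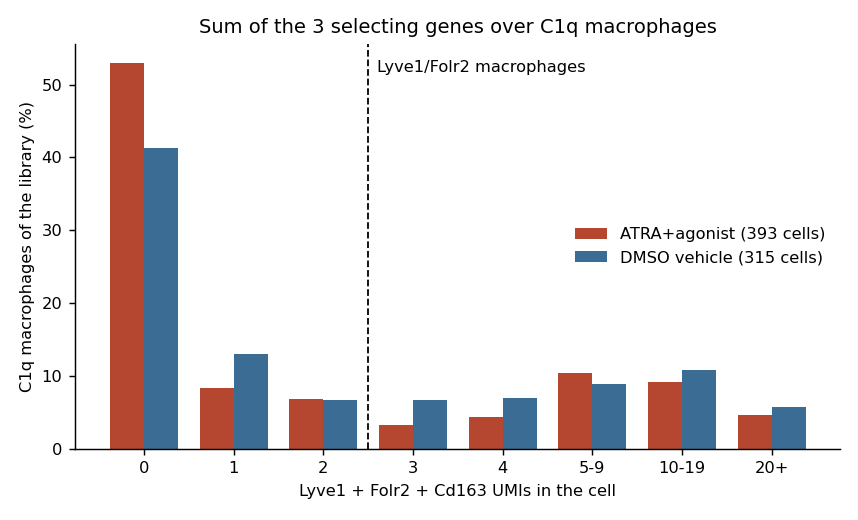
Share of C1q macrophages (percent, y axis) by their summed Lyve1, Folr2 and Cd163 UMIs (x axis, binned) in the ATRA+agonist and DMSO vehicle libraries. Cells with 0 UMIs are the tallest bar in each library, and cells on either side of the limit of 3 UMIs are present without a gap.

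The label was checked against markers. All 10 macrophage markers were present in both libraries, summing to 16320 CPM with ATRA+agonist and 18391 CPM with DMSO vehicle. They included the pan-macrophage genes Adgre1 (503 and 413 CPM) and Csf1r (693 and 762 CPM). Markers of other cell types followed. The selection itself had limited Pecam1, Cdh5, Pdgfra and Cd79a, which are among the endothelial, mesenchymal and B cell markers, so that low sums there were set in part by the selection. Of 6 endothelial markers 5 and 5 had UMIs, at a sum of 12.6 and 23.3 CPM, with Cldn5 at 0. Of 6 T or NK cell markers 1 and 1 had UMIs, at 0.837 and 1.94 CPM, with Cd3e and Cd3d at 0. Of 6 lymphatic endothelial markers, a type that also carries Lyve1, 1 and 3 had UMIs, at 30.1 and 18.4 CPM, most of them from Pdpn, with Mmrn1 and Reln at 0. Of 7 dendritic cell markers 3 and 2 had UMIs, at 39.3 and 50.4 CPM, nearly all from Cd209a, with Flt3, Xcr1 and Ccr7 at 0. Of 6 mesenchymal markers 4 and 4 had UMIs, at 110 CPM in both libraries, carried mainly by Gsn. B cell markers (261 and 178 CPM, 5 and 4 of 6) came mainly from Ighm, neutrophil markers (84.5 and 61.1 CPM, 1 and 3 of 5) mainly from Csf3r, and muscle stem cell markers (219 and 337 CPM, 2 and 2 of 6) mainly from Sdc4, with Myf5, Calcr and Myod1 at 0. Glial and muscle fiber markers lay between 34.9 and 56.1 CPM, and mast cell, tenocyte and smooth muscle markers under 10 CPM. All 5 proliferation markers had UMIs, at 46.9 and 27.1 CPM.

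Lyve1/Folr2 macrophages differed from Lyve1-low macrophages by the genes known to accompany LYVE1, by some complement, iron and scavenger genes, and by lower levels of monocyte-derived genes such as Cd52 and Plac8. The selection read 3 genes of the same cells, so these differences describe the chosen cells and were not tested. Of 6524 genes with at least 100 UMIs, 507 (7.77%) were at least 1.5-fold higher in Lyve1/Folr2 macrophages within both libraries and 314 (4.81%) at least 1.5-fold lower. For gene lists the minimum was 30 UMIs, at which 9.73% of all 9646 genes were higher and 5.26% lower in both libraries. The resident list was drawn up from genes known to go with LYVE1 in macrophages, with earlier results of these data known. Of its 33 genes 30 were higher and 0 lower. The median log2 ratio was 1.96 with ATRA+agonist and 1.75 with DMSO vehicle, beside 0.10 and 0.04 over all genes. The cells were selected on genes of this kind, so the result was largely set beforehand. In Lyve1-low macrophages taken alone, 26 of the 33 genes had at least 30 UMIs.

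The largest ratios included several receptors of tissue-resident macrophages. Vsig4, a receptor for complement fragments, had 58 UMIs in 19 Lyve1/Folr2 macrophages and 0 in Lyve1-low macrophages with ATRA+agonist (log2 ratio at least 5.45, against a floor of 3 UMIs), and 79 UMIs in 22 cells against 2 UMIs with DMSO vehicle (6.05). Timd4, a phosphatidylserine receptor for dying cells, had 40 UMIs against 2 and 30 UMIs against 1. Both were thus nearly confined to Lyve1/Folr2 macrophages, yet present in a minority of them. The lectin Cd209f was higher by 4.60 and 4.75 on the log2 scale, and the lectin-like Siglech by 4.48 and 4.48. The ficolin Fcna was higher by 3.50 and 3.58 and the collectin Colec12 by 3.17 and 3.60. Like Vsig4, these genes reached the minimum of UMIs mainly through Lyve1/Folr2 macrophages. Those cells held 193 of 209 Cd209f UMIs, 149 of 163 for Siglech and 178 of 193 for Plekhg5, given below. Cd209f was found in 24 members with ATRA+agonist and in 11 with DMSO vehicle, where 1 cell held 28.1% of its UMIs.

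More common genes separated the cells by smaller ratios. F13a1 was at 1817 against 408 CPM with ATRA+agonist and at 1928 against 491 CPM with DMSO vehicle, and was seen in 122 and 120 of the Lyve1/Folr2 macrophages. The chemokine Pf4 was at 2907 against 650.3 CPM and at 2695 against 872 CPM. The selenium carrier Selenop was at 2841 against 896 CPM and at 2707 against 1160 CPM. Each of these 3 genes was found in at least 117 of the cells of either library. They were also found in most Lyve1-low macrophages, but in a smaller share of them, so that both level and presence differed. Of Lyve1/Folr2 macrophages, 97.6% with ATRA+agonist and 97.6% with DMSO vehicle held F13a1. Pf4 was found in 97.6% and 95.1% of these cells, and Selenop in 98.4% and 99.2%. With ATRA+agonist and DMSO vehicle, Selenop was found in 89.9% and 87.5% of Lyve1-low macrophages. Pf4 was found in 64.2% and 71.4% of them, and F13a1 in 63.8% and 68.2%. Mrc1 was at 2408 against 1312 CPM and at 2418 against 1337 CPM. Cbr2, a carbonyl reductase, was at 363 against 48.2 CPM and at 288 against 39.8 CPM, and Gas6, a bridge between dying cells and their receptors, at 390 against 49.3 CPM and 368 against 87.1 CPM. Among the genes with the highest ratios were also the thyroid hormone receptor Thrb (3.31 and 4.10), the growth factor receptor Egfr (3.25 and 4.03), the guanine exchange factor Plekhg5 (4.87 and 4.01) and P3h2, a collagen-modifying hydroxylase (3.38 and 2.75), Ank2 (2.83 and 3.38), Chp2 (3.28 and 2.70) and Cpne8 (3.04 and 2.77).

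**Figure D2:**
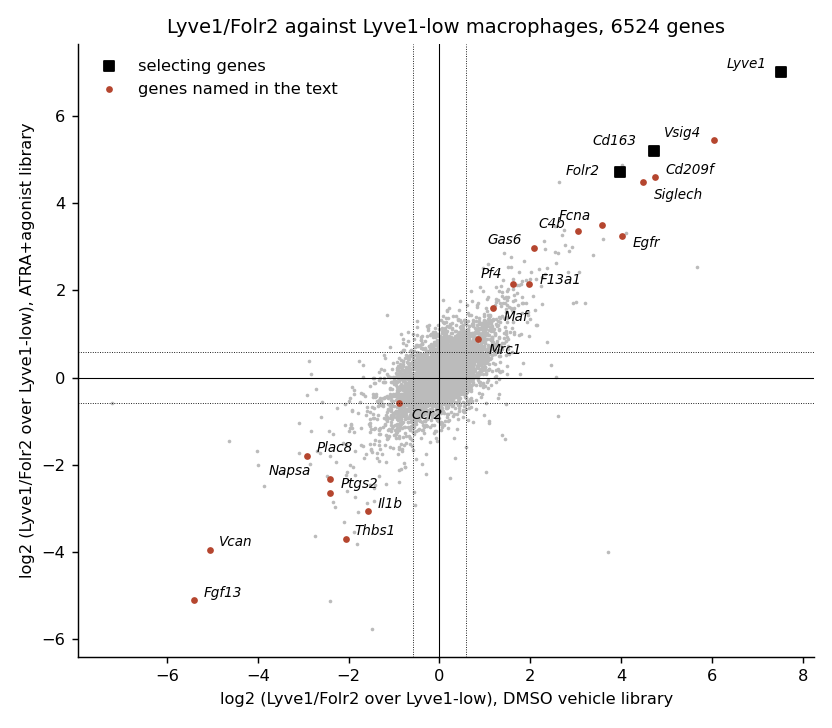
Log2 ratio of Lyve1/Folr2 over Lyve1-low macrophages for 6524 genes, in the DMSO vehicle library (x axis) and the ATRA+agonist library (y axis), with dotted lines at 1.5-fold. The selecting genes are black squares and named genes red points, with Vsig4 at the upper right and Fgf13 and Vcan at the lower left.

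Uptake, iron and complement genes were partly higher. Of 19 scavenger and uptake receptors 7 were higher and 2 lower, among them the clearance receptor Stab1 at 305 against 69.7 CPM with ATRA+agonist and 323 against 95.8 CPM with DMSO vehicle. Mertk, which binds Gas6, was higher (1.23 and 0.72), while its relative Axl was lower (-1.96 and -0.79). Of 19 iron and heme genes 7 were higher and 2 lower. The transferrin receptor Tfrc was at 82.8 against 17.4 CPM and 108 against 28.9 CPM, ceruloplasmin Cp at 74.5 against 9.27 CPM and 61.1 against 8.08 CPM, and heme oxygenase Hmox1 at 339 against 164 CPM and 589 against 344 CPM. Of 14 complement genes 5 were higher and 1 lower, with C4b among the higher (3.36 and 3.06 on the log2 scale).

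Secreted factors split in both directions. Of 30 chemokines and cytokines 8 were higher and 7 lower. Higher were Ccl24, an eosinophil attractant (244 against 33.8 CPM and 209 against 34.0 CPM), Ccl8 (log2 ratios 1.72 and 3.21), Ccl7 (1.02 and 1.02) and Ccl12 (1.65 and 1.36). Lower were the inflammatory cytokine Il1b (100.4 against 842 CPM and 239 against 709 CPM) and the interferon-induced Cxcl9 (-5.13 and -2.42). Of 26 growth factor and matrix genes 8 were higher, with Igf1, a growth factor for muscle, at 324 against 140 CPM and 245 against 99.8 CPM, and 10 were lower, with Thbs1 at -3.69 and -2.07. Of 34 transcription factors 8 were higher, including Maf (1.60 and 1.18), a factor of resident macrophages, and Rbpj (1.30 and 0.99), the nuclear partner of Notch. Among the 6 that were lower were Bhlhe40 (-2.06 and -1.90) and Nr4a1 (-1.35 and -0.73).

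Of 25 MHC class II and monocyte-derived genes 0 were higher and 10 lower, with median log2 ratios of -0.85 and -0.80. The class II invariant chain Cd74 was at 9179 against 17267 CPM with ATRA+agonist and at 11392 against 15813 CPM with DMSO vehicle (log2 ratios -0.91 and -0.47). H2-Aa (-0.85 and -0.35), H2-Ab1 (-1.01 and -0.54) and H2-Eb1 (-0.98 and -0.46) were like it, so that all 4 passed 1.5-fold with ATRA+agonist and none with DMSO vehicle. Cd52 (412 against 1311 CPM and 420 against 1202 CPM) and Plac8 (35.1 against 122 CPM and 43.6 against 328 CPM) were lower in both. Fgf13 had 2 UMIs in Lyve1/Folr2 against 156 in Lyve1-low macrophages with ATRA+agonist and 1 against 71 with DMSO vehicle (log2 intervals -8.17 to -3.23 and -10.7 to -2.88). Vcan, a matrix proteoglycan of monocytes, had 2 against 70 and 1 against 56 UMIs (-7.03 to -2.05 and -10.4 to -2.52). Both were thus nearly absent from Lyve1/Folr2 macrophages and reached the minimum of 100 UMIs through Lyve1-low cells. The 15 genes with the lowest log2 ratios, ordered by the one nearer 0 of the 2 libraries, also held Cxcl9 and Thbs1, given above, the prostaglandin synthase Ptgs2, Napsa, the inflammasome sensor Mefv, Klra2, the B cell and macrophage receptor Cd72, Sirpb1c, Nrg1, Sh2d1b1, Csmd1, Cytip and Bcl2a1d, whose log2 ratios were at most -2.05 in both libraries. These too had most of their UMIs in Lyve1-low cells. Lyve1/Folr2 cells held 3 of 100 Cxcl9 UMIs, 6 of 116 for Csmd1 and 8 of 148 for Mefv. Some rested on few cells, with Csmd1 in 2 and 3 Lyve1-low cells and Cxcl9 in 11 and 6. Of 25 LXR and PPAR targets 1 was higher and 9 lower, among them the cholesterol exporter Abcg1 (-1.45 and -1.34). Of 13 retinoid genes with enough UMIs 0 were higher and 1, the transglutaminase Tgm2, was lower (-2.88 and -1.61). The remaining lists had smaller shares past 1.5-fold than the resident list. Of 76 oxidative phosphorylation genes 0 were higher and 3 lower, of 28 lysosomal genes 4 and 0, of 29 fatty acid oxidation genes 1 and 0, of 20 MHC class I genes 0 and 3, of 32 type I interferon genes 3 and 2, and of 22 interferon gamma genes 3 and 2. Of 30 NF-kB genes 3 were higher and 5 lower, of 20 lipid-associated macrophage genes 2 and 4, of 26 immediate early and heat shock genes 3 and 0, of 21 glucocorticoid-induced genes 7 and 2, of 23 oxidation defence genes 2 and 2, and of 13 proliferation genes 0 and 2.

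Lyve1/Folr2 macrophages were themselves uneven in MHC class II. To compare cells at equal depth, 2000 UMIs were drawn from each cell, leaving out 6 and 3 members with fewer. The summed UMIs of H2-Aa, H2-Ab1, H2-Eb1 and Cd74 then ranged from 0 to 145 with a median of 28 in the ATRA+agonist library and from 0 to 183 with a median of 44.5 in the DMSO vehicle library. Under 10 of these UMIs were found in 43 of 119 members with ATRA+agonist and in 24 of 120 with DMSO vehicle. The shares were 36.1% (27.5% to 45.4%) and 20% (13.3% to 28.3%), at a ratio of 1.81 (1.18 to 2.78). In Lyve1-low macrophages the same was true of 19 of 238 cells (7.98%) and 10 of 174 cells (5.75%). Class II-poor cells were thus mainly Lyve1/Folr2 macrophages, and made up a larger share of them in the ATRA+agonist library. The value of 10 UMIs cuts a range and defines no type. Between 5 and 19 UMIs lay 16 and 25 members. The ratio was 2.42 at a value of 5 and 1.31 at a value of 20, both chosen after seeing the data. At least 20 UMIs were held by 67 of 119 members with ATRA+agonist and by 80 of 120 with DMSO vehicle. The class II share itself was not among the results planned beforehand. Without drawing UMIs, 84.0% of members with ATRA+agonist and 97.6% with DMSO vehicle held at least 1 class II UMI. Endothelial cells, at medians of 3981.5 and 4144 UMIs, held at least 10 of 2000 in 3.92% and 8.24% of cells, and mesenchymal cells in 0.266% and 0.228%. Class II UMIs of other cells thus also differed between the libraries, and their part in the result was not tested.

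**Figure D3:**
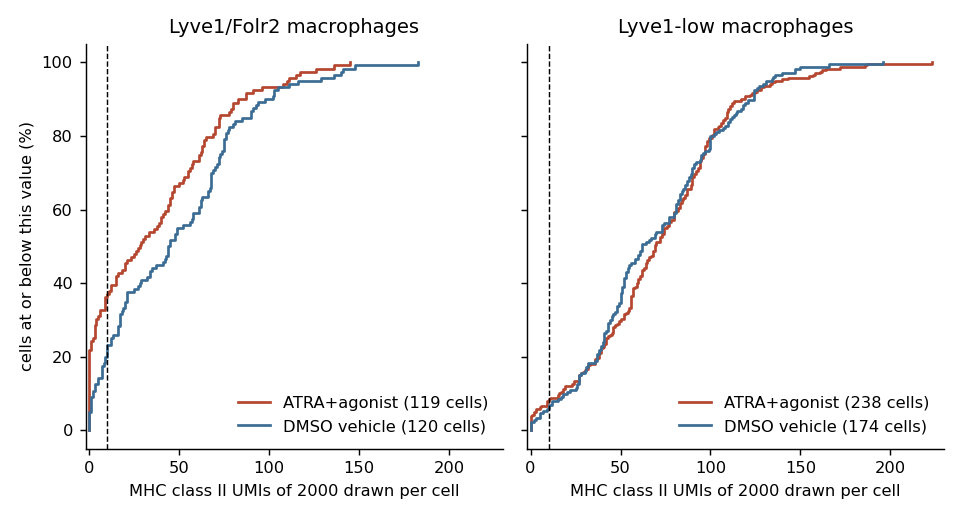
Cumulative share of cells (percent, y axis) at or below each summed H2-Aa, H2-Ab1, H2-Eb1 and Cd74 UMI count among 2000 UMIs drawn per cell (x axis), for Lyve1/Folr2 (left) and Lyve1-low (right) macrophages of both libraries, with a dashed line at 10 UMIs. The median of Lyve1/Folr2 macrophages is 28 with ATRA+agonist and 44.5 with DMSO vehicle, and 69 and 62 in Lyve1-low macrophages.

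Several of the resident receptors were higher in class II-poor members than in the others. Of 3576 genes with at least 100 UMIs over the 4 sums, 110 (3.08%) were at least 1.5-fold higher in class II-poor members in both libraries and 101 (2.82%) at least 1.5-fold lower. The split was made on genes of the same cells, so these values are a description. Vsig4 was at 141 against 8.47 CPM with ATRA+agonist and at 288 against 28.7 CPM with DMSO vehicle. Colec12 was at 177 against 9.68 CPM and at 257 against 52.5 CPM. Lyve1 was at 617 against 143 CPM and at 823 against 335 CPM, a wider gap than that of Folr2 (675 against 436 CPM and 713 against 411 CPM). The Notch target Hes1 (2.88 and 1.85 on the log2 scale), the nuclear receptor Rora (1.62 and 1.97) and Timd4 (3.70 and 1.35) were higher as well.

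Lower in class II-poor members were the class II regulator Ciita (-3.96 and -3.15), the peptide loader H2-DMb1 (-3.19 and -2.85), Il1b (8.30 against 142 CPM and 26.2 against 289 CPM) and the monocyte chemokine receptor Ccr2 (158 against 862 CPM and 83.9 against 476 CPM). Mrc1 and Apoe did not pass 1.5-fold between them. Mrc1 was at 2506 against 2373 CPM and at 2846 against 2310 CPM, and apolipoprotein Apoe at 11753 against 13266 CPM and at 14724 against 19445 CPM. The class II-poor and class II-rich members held 361524 and 826346 UMIs with ATRA+agonist and 190780 and 837644 UMIs with DMSO vehicle, so that low genes of the class II-poor DMSO vehicle cells rest on few counts.

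The ATRA+agonist and DMSO vehicle libraries held nearly the same share of Lyve1/Folr2 macrophages. They made up 125 of 7467 kept cells (1.67%, interval 1.40% to 1.99%) and 123 of 7517 (1.64%, 1.36% to 1.95%), a ratio of 1.02 (0.799 to 1.31). Lyve1-low macrophages made up 3.59% and 2.55%, a ratio of 1.41 (1.17 to 1.69). Of C1q macrophages, Lyve1/Folr2 cells were therefore 31.8% (27.2% to 36.7%) and 39.0% (33.6% to 44.7%), a ratio of 0.815 (0.667 to 0.995). At a limit of 5 UMIs for the selecting genes the ratio was 0.952 (0.735 to 1.23), an interval that included 1. With every cell thinned to 2000 UMIs before selection, 52 and 53 cells passed as Lyve1/Folr2, beside 266 and 235 Lyve1-low cells. Membership thus depended on depth. Over cells with at least 2 UMIs of Ptprc, the pan-leukocyte gene, Lyve1/Folr2 macrophages were 104 of 1511 (6.88%) and 97 of 892 (10.9%), a ratio of 0.633 (0.486 to 0.824). The ratio thus depended on the cells it was counted over, and cells with at least 2 Ptprc UMIs were more numerous in the ATRA+agonist library. B cells, taken as cells with at least 3 Cd79a and at most 1 C1q UMIs, numbered 638 and 74. Their part in the ratio was not tested.

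Within Lyve1/Folr2 macrophages, transcripts of Chn2, Malt1 and Fn1 were higher with ATRA+agonist, and those of Spp1, Fkbp5, Hspa1b, Il1b and hemoglobin were lower. Retnla, a gene chosen after its value was seen, was also higher. The hemoglobin difference was not particular to these cells, as given below. Of 3588 genes with at least 100 UMIs, 157 (4.38%) were at least 1.5-fold higher and 98 (2.73%) at least 1.5-fold lower. With median-of-ratios scaling the counts were 125 and 136, and with no hemoglobin limit 192 and 82. The median of all genes was 0.06 on the log2 scale. These are calls by size in 1 library per group, with no replicate check.

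The selection genes themselves were at similar levels apart from Lyve1. Lyve1 was at 289 CPM with ATRA+agonist and 425 CPM with DMSO vehicle (log2 ratio -0.56, interval -0.76 to -0.35), Folr2 at 522 and 471 CPM (0.15) and Cd163 at 385 and 413 CPM (-0.10). Class II-poor members carried the most Lyve1 and were the larger share with ATRA+agonist, and Lyve1 was lower both among class II-rich members (-1.23, interval -1.55 to -0.92) and among class II-poor members (-0.42). C1qa was at 3343 and 3595 CPM, C1qb at 3374 and 3556 CPM and C1qc at 2259 and 2521 CPM.

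The highest ratio was that of Chn2, a GTPase-activating protein for Rac, with 93 UMIs against 20 (log2 ratio 2.01, interval 1.30 to 2.78). Malt1, a paracaspase of antigen receptor and NF-kB signaling, had 204 UMIs against 52 (1.76, 1.31 to 2.23). Fn1, fibronectin, had 444 UMIs in 19 cells against 126 UMIs in 20 cells (1.61, 1.32 to 1.90). Fn1 was therefore carried by a small set of cells of similar size in both libraries, and 1 cell held 19.6% of its UMIs with ATRA+agonist and 36.5% with DMSO vehicle. In Lyve1-low macrophages the ratios were 0.43 for Chn2, 0.54 for Malt1 and 0.00 for Fn1. In Ly6c2 monocytes, cells with at least 3 Ly6c2 and at most 1 C1q UMIs, they were 1.89, 1.35 and -0.26. The remaining 9 of the 12 highest genes were Rab11fip1 (1.59), a protein of endosome recycling, AC149090.1 (1.35), the Toll-like receptor relative Cd180 (1.34), Usf3 (1.30), Tnip3 (1.29), the adenylyl cyclase Adcy9 (1.27), Siglech (1.23), Gabpb2 (1.23) and Plekhg5 (1.23). In Lyve1-low macrophages these 9 were, in the same order, at 0.44, 0.28, 0.69, -0.50, 0.79, 0.61, 1.24, -0.16 and 0.36. Tnip3 and Usf3 rested on single cells, which held 59.9% and 39.2% of their ATRA+agonist UMIs. Without the cell with most UMIs in each library the ratios were 0.44 and 0.76.

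Spp1, which encodes the secreted phosphoprotein osteopontin, had the lowest ratio, with 40 UMIs in 10 cells against 189 UMIs in 9 cells (-2.45, interval -2.98 to -1.95), while Lyve1-low macrophages had 0.74, endothelial cells -3.01 and mesenchymal cells -1.17. Fkbp5, a chaperone partner induced by glucocorticoids, had 35 UMIs in 22 cells against 128 UMIs in 62 cells (-2.08, -2.67 to -1.53). After drawing 2000 UMIs per cell, 10.9% and 20.8% of members had Fkbp5. The gene was lower in other cells too, at -1.60 in Lyve1-low macrophages and -1.15 in endothelial cells. The heat shock gene Hspa1b had 106 UMIs against 263 (-1.52), with -0.93 in Lyve1-low macrophages and -0.83 in endothelial cells. Il1b had 120 UMIs in 16 cells against 247 in 19 cells (-1.25, -1.58 to -0.93), with 0.25 in Lyve1-low macrophages and -2.01 in endothelial cells. The others of the 12 lowest were Ly6a (-1.36), A530013C23Rik (-1.31), the transcription factor Nfix (-1.27), the copine Cpne8 (-1.23) and the globin genes Hbb-bt (-1.98), Hbb-bs (-1.71), Hba-a1 (-1.65) and Hba-a2 (-1.42). Globin genes are red cell genes, and the selection had itself limited Hbb- UMIs in both libraries. Hbb-bs was lower in every other cell group compared, at -1.50 in Lyve1-low macrophages, -1.48 in endothelial and -1.73 in mesenchymal cells. It was at -1.78 in B cells, -1.25 in Ly6c2 monocytes and -1.75 in Cd209a dendritic cells. The 5 erythroid markers, of which 5 and 4 had UMIs in Lyve1/Folr2 macrophages, summed to 286 and 911 CPM in these cells and to 280.1 and 817 CPM in Lyve1-low macrophages. Their part in the other results was not tested.

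**Figure D4:**
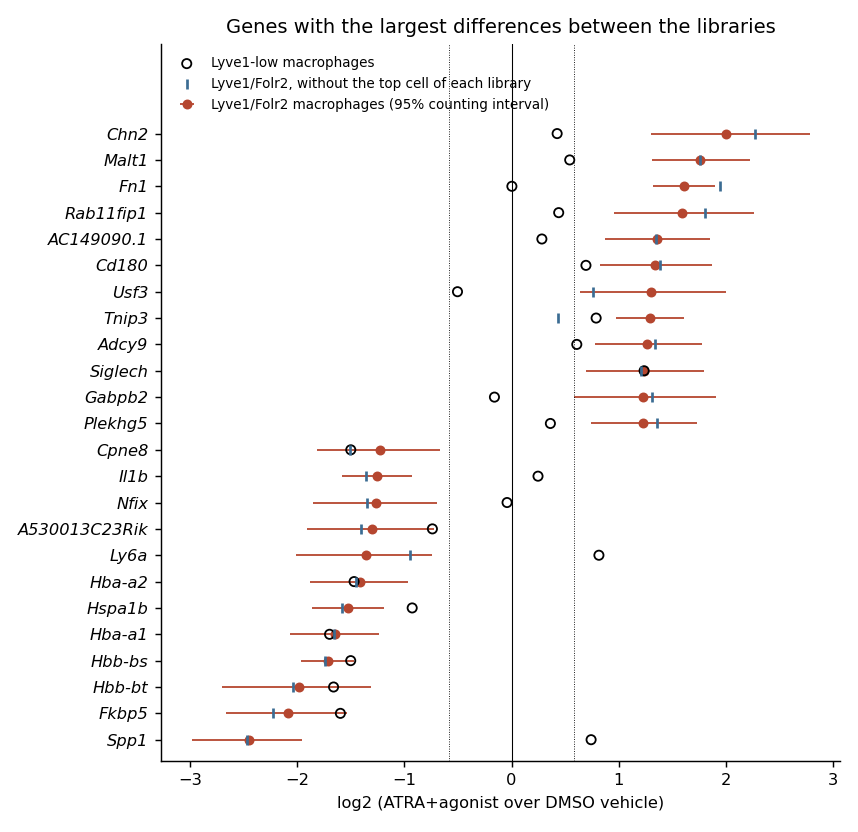
Log2 ratio of ATRA+agonist over DMSO vehicle (x axis) for the 12 highest and 12 lowest genes in Lyve1/Folr2 macrophages, with exact 95% counting intervals (red), without the cell with most UMIs of each library (blue ticks), and in Lyve1-low macrophages (open circles). Chn2 and Malt1 are at the top, Spp1 and Fkbp5 at the bottom, and Spp1 and Il1b lie on the other side of 0 in Lyve1-low macrophages.

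The lists gave the following by role. At the minimum of 30 UMIs used for lists, 10.1% of 7050 genes were higher and 5.67% lower, with a median log2 ratio of 0.07. Of 33 resident macrophage genes 3 were higher and 3 lower, with a median of 0.07, so that the resident list as a whole stood at the median of all genes. The higher ones were the lectins Cd209f (129 UMIs against 64, 0.80), Cd209g (53 against 25, 0.87) and Cd209b (32 against 10, 1.47). The lower ones were the ectoenzyme Cd38 (34 against 55, -0.91), Vsig4 (58 against 79, -0.66) and Colec12 (72 against 94, -0.60). Without members holding any UMI of other immune cell markers, a choice made after seeing the data, Vsig4 was at 0.028. The most abundant members hardly differed, with Pf4 at 0.11, Selenop at 0.07, Mrc1 at -0.01 and F13a1 at -0.09.

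Of 20 MHC class II and monocyte-derived genes 2 were higher and 0 lower, with a median of -0.02. Ccr2 had 771 UMIs against 415 (0.68, interval 0.51 to 0.86), with 0.36 in Lyve1-low macrophages. Within the class II-rich members its ratio was 0.86, and within the class II-poor members 0.91. Ly6c2, a monocyte gene, had 36 UMIs in 4 cells against 1 UMI, and 66.7% of the 36 came from 1 cell. The 4 class II genes used above were lower, at -0.46 for H2-Aa and H2-Eb1, -0.36 for H2-Ab1 and -0.31 for Cd74, none of them past 1.5-fold. All 6 monocyte markers had UMIs in both libraries, and they summed to 1086 and 585 CPM in Lyve1/Folr2 macrophages and to 2047 and 2186 CPM in Lyve1-low macrophages. In Lyve1/Folr2 macrophages the sum came mostly from Ccr2 and Fn1. Of 1298 and 604 UMIs, Ccr2 had 771 and 415 and Fn1 444 and 126, whereas Vcan had 2 and 1.

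Of 19 scavenger and uptake receptors 0 were higher and 3 lower. These were the Fc receptor Fcgr4 (30 UMIs against 61, -1.24), Axl (42 against 60, -0.73) and Colec12. Of 15 iron and heme genes 0 were higher and 2 lower, namely Hmox1 (339 and 589 CPM, -0.80, interval -0.98 to -0.61) and Hfe (63 UMIs against 85, -0.64). Hmox1 was lower by a similar ratio among class II-poor (-0.84) and class II-rich (-0.80) members and in Lyve1-low macrophages (-1.07). Hmox1 is induced by heme, and the erythroid UMIs given above were lower in the same library. Their part in the Hmox1 result was not tested. Of 11 complement genes 1 was higher and 3 lower. Cfp, properdin, had 294 UMIs against 159 (0.67), whereas C4b had 141 against 258 (-1.08, -1.39 to -0.78) and the factor Cfb 43 against 57 (-0.62).

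Of 24 chemokines and cytokines 3 were higher and 5 lower. Beside Il1b, the lower genes were Ccl12, a ligand of CCR2 (450 UMIs against 693, -0.84, interval -1.01 to -0.66), Tnfsf9 (76 against 152, -1.21), the receptor antagonist Il1rn (34 against 55, -0.91) and the B cell attractant Cxcl13 (5 against 39, -3.18, with 74.4% of the DMSO vehicle UMIs in 1 cell). Higher were the anti-inflammatory cytokine Il10 (100 UMIs in 33 cells against 43 in 30 cells, 1.01), Il15 (58 against 29, 0.79) and Il6 (24 against 7, 1.57). One cell held 34.0% of the ATRA+agonist Il10 UMIs, and the ratio was 0.55 without the top cells and -0.066 at a limit of 5 UMIs for the selecting genes. Of 29 NF-kB genes 0 were higher and 1 lower, Tnfaip2 (-0.75). Of 22 growth factor and matrix genes 3 were higher, among them Fn1 and the neuregulin Nrg1 (32 UMIs in 4 cells against 5 in 3 cells, 2.47), and 4 lower, among them Hbegf (39 against 73, -1.12). Retnla, a gene of alternatively activated macrophages outside these lists, had 3516 UMIs in 29 cells against 1499 UMIs in 26 cells (1.02, 0.93 to 1.11), with 0.11 in Lyve1-low macrophages. The numbers of cells with Retnla were thus close while their UMIs were not. Of endothelial cells 0.451% and 0.456% held a Retnla UMI.

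Of 19 lipid-associated macrophage genes 1 was higher and 4 lower, with a median of -0.16. Lipoprotein lipase Lpl had 451 UMIs against 210 (0.89, interval 0.65 to 1.13). Spp1 was lower, as were Mmp12 (8 UMIs against 25, in 2 cells of each library, -1.86), Fabp5 (70 against 134, -1.15) and Gpnmb (32 against 51, -0.88), but 70.9% of the Fabp5 and 90.2% of the Gpnmb UMIs of the DMSO vehicle library came from 1 cell. Without the top cells Fabp5 was at 0.28, and with each cell weighted alike Mmp12 was at 0.16. Apoe, the most abundant of the list, was at 12861 and 18542 CPM (-0.53). Of 20 LXR and PPAR targets, which RXR agonists can reach, 1 was higher and 1 lower. The fatty acid receptor Pparg had 55 UMIs against 23 (1.05), and Mylip, an LXR target that degrades lipoprotein receptors, 109 against 142 (-0.59).

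Retinoid genes gave little in these cells. Of the 28 genes listed, 6 had at least 30 UMIs, and 0 of these were past 1.5-fold in either direction, with a median of 0.03. Dhrs3, a retinaldehyde reductase induced by retinoic acid, had 294 UMIs against 192 (0.40, interval 0.14 to 0.67). The receptor Rara had 82 against 62 (0.19) and its target Rarb 15 against 10. The retinoic acid-degrading enzymes Cyp26a1 and Cyp26b1 had 0 against 1 and 2 against 0 UMIs, at which no difference was detectable.

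**Figure D5:**
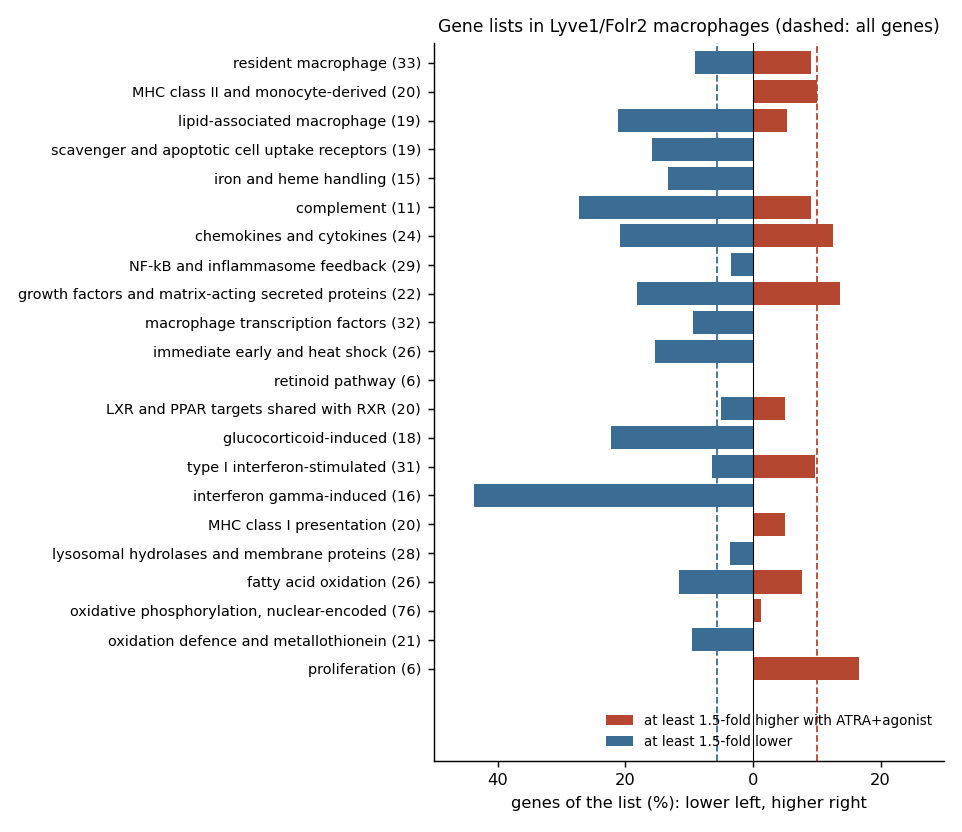
Share of the genes of each of the 22 lists (percent, x axis, number of genes with at least 30 UMIs in parentheses) at least 1.5-fold higher (right) or lower (left) with ATRA+agonist in Lyve1/Folr2 macrophages, with dashed lines at the shares over all genes, 10.1% and 5.67%. The interferon gamma-induced list has the longest bar, 7 of 16 genes lower.

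Glucocorticoid-induced and interferon gamma-induced genes had the lowest list medians. Of 18 glucocorticoid-induced genes 0 were higher and 4 lower, with a median of -0.39, beside -0.19 in Lyve1-low macrophages and -0.34 in endothelial cells. Past 1.5-fold were Fkbp5, the thrombin receptor Thbd (11 UMIs against 26, -1.45), the kinase Sgk1 (35 against 56, -0.89) and the leucine zipper gene Tsc22d3 (231 against 314, -0.65), while Dusp1, the most abundant member, was at 0.01. Of 16 interferon gamma-induced genes 0 were higher and 7 lower, with a median of -0.35, beside -0.31 in Lyve1-low macrophages and -0.99 in endothelial cells. They were the checkpoint ligand Cd274 (13 against 46, -2.04), Fcgr4, the GTPases Gbp2 (25 against 49, -1.18), Igtp (21 against 40, -1.14) and Iigp1 (134 against 235, -1.02), Socs1 (37 against 50, -0.65) and the MHC class I activator Nlrc5 (100 against 134, -0.63). Both medians were thus below that of all genes in Lyve1-low macrophages and endothelial cells too, while Ly6c2 monocytes had 0.46 and 0.49. Of 31 type I interferon genes 3 were higher and 2 lower, with a median of 0.07.

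Of 26 immediate early and heat shock genes 0 were higher and 4 lower. Beside Hspa1b these were Hspa1a (234 UMIs against 395, -0.97), Hsp90aa1 (510 against 773, -0.81) and Dusp2 (28 against 64, -1.40), while Jun, a gene that tissue digestion can induce, was at 0.04. Of 32 transcription factors 0 were higher and 3 lower, with Id2 at -0.79, Runx3 at -1.33 and Id3 at -0.60. Maf, at 1143 and 825 CPM (0.47), did not pass 1.5-fold. Of 28 lysosomal genes 0 were higher and 1 lower, the protease Ctsl (377 against 608, -0.90). The metabolic lists were near the median of all genes, with 1 of 76 oxidative phosphorylation genes higher, Atp5k (142 against 60, 1.03), and 0 lower, and 2 of 26 fatty acid oxidation genes higher and 3 lower. Of 20 MHC class I genes 1 was higher and 0 lower, of 21 oxidation defence genes 0 and 2, and of 6 proliferation genes 1 and 0, the last being Mki67 (26 against 11).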

How the data were processed

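Single-cell suspensions of quadriceps and gastrocnemius were sorted for living cells and captured with the 10x Chromium 3′ system. The authors aligned the reads to mm10 (GRCm38) with Cell Ranger 7.2.0 and deposited filtered matrices of raw UMI counts for 32285 genes, 1 per library, which were used as given. The annotation release is not given in the sources used here, and gene positions are those of a GRCm38 annotation matched by gene ID. The study's limits were applied (300 to 5000 genes, under 20% mitochondrial and under 0.25% Hbb- UMIs). Antisense and overlapping genes may share reads.

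UMIs were summed over the selected cells of each library and divided by all their UMIs (CPM). Log2 ratios of CPM carry exact conditional binomial 95% intervals, CPM exact Poisson intervals and shares Clopper-Pearson intervals. Ratios of shares carry 95% intervals from a normal approximation on the log scale. A gene was called at 1.5-fold by size alone, with at least 100 UMIs (30 in lists) over the cells compared. A fold against 0 UMIs used a floor of 3. No test was possible with 1 library per group. The text names the selection genes, up to about 4 genes per list, the 12 highest and lowest between libraries, the 15 highest and lowest between Lyve1/Folr2 and Lyve1-low macrophages, and markers. Retnla and the genes named for the MHC class II split were chosen after their values were seen. The members, 22 gene lists and marker lists were chosen with earlier results of these data known. Alternatives changed the selection, filters, scaling and depth. Scripts ran in Python 3.11.15 with numpy 2.4.6, scipy 1.17.1, pandas 2.3.3 and scikit-learn 1.9.0, and the ratios were tested on simulated data.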

Additional observations from a re-analysis of the deposited data

Results flagged for a closer look

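In 13 genes the ATRA+agonist over DMSO vehicle difference had opposite directions in Lyve1/Folr2 and Lyve1-low macrophages, with both counting intervals clear of 0 and the ratio in Lyve1/Folr2 macrophages still past 1.5-fold in the same direction without the cell with most UMIs of each library. Fabp5 (-1.15 and 0.45) and Rsad2 (-0.88 and 0.82) also had opposite directions, but were at 0.28 and 0.21 in Lyve1/Folr2 macrophages without those cells. The difference between the cell groups was not tested, since each has 1 library per group. No share over all genes is given beside this count, and the intervals leave out differences between cells. The 13 genes are therefore a list by rule and no result about them as a set. The gene with the largest gap was Spp1, at -2.45 in Lyve1/Folr2 and 0.74 in Lyve1-low macrophages, beside -3.01 in endothelial cells. Ly6a was at -1.36 and 0.82, Il1b at -1.25 and 0.25 (endothelial cells -2.01), the lysosomal acetyltransferase Hgsnat at -0.98 and 0.54, the receptor Axl at -0.73 and 0.45, Ifi211 at -0.72 and 0.24, the chemokine receptor-like Ccrl2 at -0.63 and 0.31 and Fbxo33 at -0.60 and 0.56. In the other direction stood Lrp12 at 0.98 and -0.67, the kinase Fyn at 0.70 and -0.80, the adaptor Traf3 at 0.62 and -0.55, Rffl at 0.60 and -0.51 and Rnf141 at 0.59 and -0.55.

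Cells outside the comparisons were also looked at. The hemoglobin limit removed 8.21% of the Lyve1/Folr2 macrophages of the DMSO vehicle library and 3.85% of those of the ATRA+agonist library. Of the other cells it removed 18.9% and 4.68%.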

How the results depend on the processing

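No paired analysis was possible because each group has 1 library, and no replicate was left out for the same reason.

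Ratios of named genes between the libraries, recomputed with 1 choice changed, gave 1913 values, of which 1788 stayed within the counting interval of the main value, 118 moved further, and 7 values of genes past 1.5-fold changed direction. Tnip3 changed direction with at least 10 C1q UMIs (-0.21) and with no Pecam1, Cdh5, Pdgfra or Cd79a UMI (-0.15). Il10 changed direction with at least 5 UMIs of the selecting genes (-0.066) and, as did Vsig4 (0.028), without cells holding UMIs of other immune cell markers (Il10 -0.040). Mmp12 did so with each cell weighted alike (0.16), and Fabp5 without the cell with most UMIs (0.28). Leaving out those cells was chosen after seeing the data. The cause was not tested. No ratio of a named gene past 1.5-fold between Lyve1/Folr2 and Lyve1-low macrophages changed direction.

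The share of kept cells went from a ratio of 1.02 to 0.633 over cells with at least 2 Ptprc UMIs. The counts of genes past 1.5-fold moved with the minimum, since it sets how many genes enter. In order of higher and lower with ATRA+agonist, and higher and lower than in Lyve1-low macrophages, they were 711, 400, 939 and 507 at 30 UMIs, 24, 23, 279 and 183 at 300 UMIs, and 28, 28, 185 and 136 with cells thinned to 2000 UMIs. The share of class II-poor members had ratios from 1.31 to 2.42.

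List medians that moved by more than their spread did so mainly with thinned cells, where few genes remain: lipid-associated 0.076, retinoid -0.27, LXR and PPAR -0.14, glucocorticoid-induced -0.13, type I interferon 0.27, lysosomal 0.050 and fatty acid oxidation -0.40. Type I interferon was at 0.27 with no excluded-marker UMIs. Lysosomal was at 0.061 with each cell weighted alike. Oxidative phosphorylation was at 0.052 with no excluded-marker UMIs, 0.18 with no hemoglobin limit, 0.039 with median-of-ratios scaling and 0.16 with each cell weighted alike.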
